A study of Mus musculus with 6 samples.

Results

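The integrated stress response and the synthesis of serine and of folate-bound carbon units were followed in the mRNA of activated CD4 T cells with and without Foxo1. A list of 34 genes, chosen with earlier results of these data known, was taken by symbol. It holds kinases, transcription factors and feedback regulators of the stress response, some of its known targets, and enzymes of amino acid, serine and folate metabolism. Of the 34 genes, 30 had a row in the deposited table of 13564 normalized genes, and these same 30 had enough reads to be tested here. Atf3, Cebpb, Nupr1 and Chac1 had no row there, and are given by their read counts. Both genotypes had 3 libraries each. Foxo1TKO mice (CD4cre Foxo1 fl/fl) lose Foxo1 in T cells, through a Cre recombinase that acts at the double-positive stage of the thymus, in both the CD4 and the CD8 lineage. Foxo1Ctrl mice (Foxo1 fl/fl) carry the same floxed gene without the Cre. Both were young adult C57BL/6J mice that also carried a Foxp3-GFP reporter. CD4 naive T cells of their lymph nodes were kept in culture during 4 days. They were stimulated there by an anti-CD3 antibody, at 0.1 µg/ml, in the presence of splenocytes of CD3εKO mice, which have no T cells. The labels give 50000 naive T cells and 250000 splenocytes in each culture, and the methods give another number of T cells. Whether splenocytes were removed before the RNA was made is not stated in the sources used here.

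As background, the stress response starts when a kinase phosphorylates the translation initiation factor eIF2α, which lowers protein synthesis as a whole while the mRNA of the transcription factor ATF4 is translated more. ATF4 pairs with other bZIP proteins, such as C/EBPγ, and switches on genes for amino acid synthesis and uptake, tRNA charging and feedback on the response itself. Serine is made from a glycolytic intermediate by Phgdh, Psat1 and Psph. It then donates a carbon unit to folate through the Shmt enzymes, and Mthfd enzymes pass this unit on in the cytosol and in mitochondria, for purines and thymidylate. Activated T cells are known to depend on this pathway when they divide, and ATF4 is known to control a large part of it.

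The libraries held between 14783890 and 19675447 expected counts. All comparisons use the 13691 genes that reached 10 counts in 3 or more libraries, TMM-normalized counts, and edgeR's quasi-likelihood test. A gene was called different, or said to rise or fall, when the Benjamini-Hochberg adjusted p over all genes tested was under 0.05 and the fold change over 1.5. Fold changes are Foxo1TKO against Foxo1Ctrl on the log2 scale, followed after ± by the standard error of the fit, and values of libraries are normalized counts in the order of replicates 1, 2 and 3. Foxo1 itself had 85.4, 46.5 and 115 counts in Foxo1TKO libraries and 1529, 2285 and 1598 in Foxo1Ctrl libraries (log2 fold change −4.45 ± 0.36). Nothing says that the libraries came from separate mice or cultures, so that p-values cover only the spread between these libraries. In addition, libraries differed in the level of GC-rich transcripts, and the cause was not tested. Over 12148 genes, the deviation of a library from its genotype's mean correlated with GC content with a Spearman coefficient of 0.416, −0.300 and −0.301 in Foxo1TKO and of 0.398, −0.440 and 0.292 in Foxo1Ctrl, a description across genes that share these libraries. A fit with a GC correction was therefore made after the data were seen, and its values stand beside the members they concern.

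Of the 30 members tested, 4 rose (Gpt2, Shmt1, Psat1 and Mthfd1) and 6 fell (Trib3, Vldlr, Eif2ak3, Eif4ebp1, Ddit3 and Mthfd2) in Foxo1TKO cells. This is 33.3% of the members, where 23.0% of all genes tested were called different. For rises the share was 13.3%, against 11.1% of all genes, and for falls 20%, against 11.8%. The fall of Trib3 belongs to a gene that entered the test only through the genotype in which it was high. Without Trib3, 9 of 29 members were called (31.0%) and 5 fell (17.2%). Without the limit on fold change, the same 10 members passed an adjusted p of 0.05, as did 24.2% of all genes. The values of 15 members (50.0%) did not overlap between the genotypes, as for 42.7% of all genes. The median log2 fold change was 0.28 over the members and 0.01 over all genes. By role, none of the 14 kinases, transcription factors, feedback regulators and stress targets tested was called higher and 5 were called lower. These 5 include Trib3, which entered the test only through the genotype in which it was high. Of the 16 enzymes and tRNA synthetases, 4 were called higher and 1 lower. Whether these 2 sets of roles differed from each other was not tested. All 10 calls were made in each of the 11 other fits that kept all libraries, and 4 of them (Gpt2, Shmt1, Psat1 and Vldlr) whichever of the 6 libraries was left out.

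**Figure D1:**
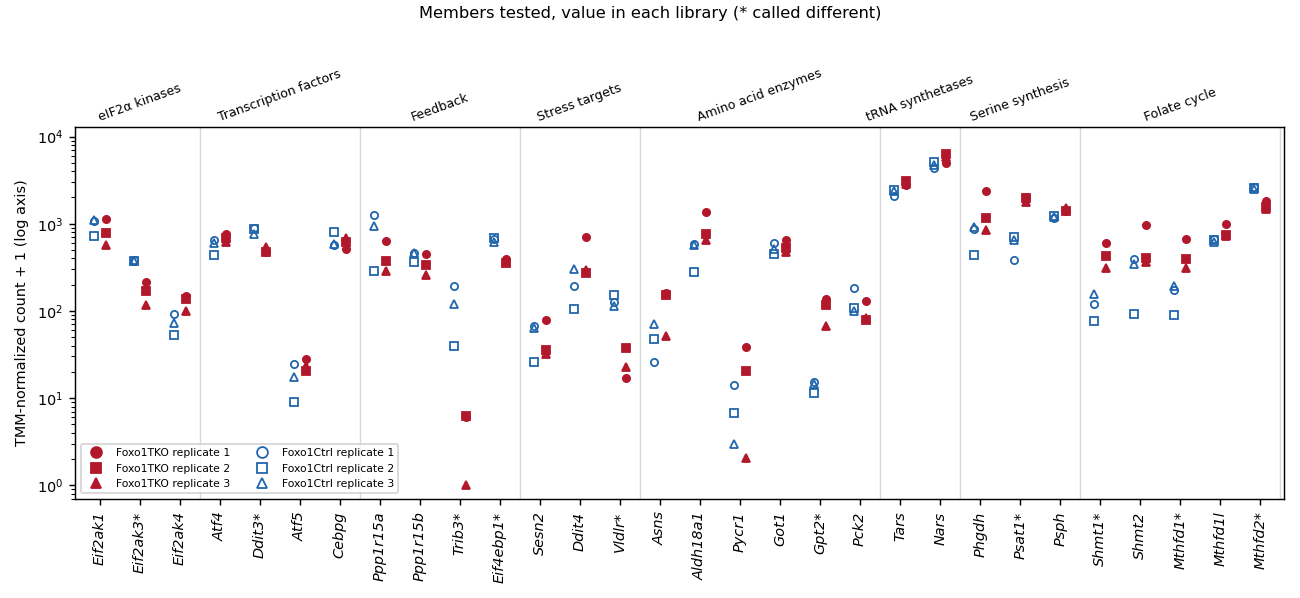
Each point is the TMM-normalized count plus 1 of a member in a single library, on a log axis (Foxo1TKO filled, Foxo1Ctrl open, symbols for replicates), with members grouped by role and an asterisk on those called different. The 3 Foxo1TKO points of Gpt2, Shmt1, Psat1 and Mthfd1 lie above all Foxo1Ctrl points, and those of Trib3, Vldlr, Eif2ak3, Eif4ebp1, Ddit3 and Mthfd2 lie below.

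**Figure D2:**
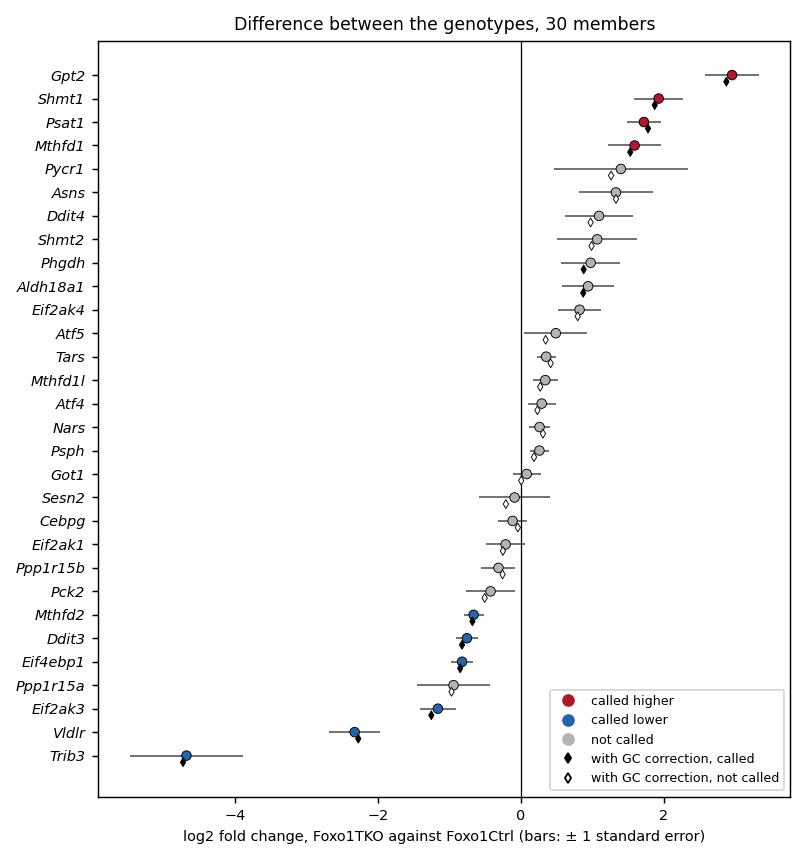
Circles give the log2 fold change of each of the 30 members with ± 1 standard error, coloured by call, and diamonds give the same value with the GC correction, filled when called. Values run from −4.69 for Trib3 to 2.96 for Gpt2, and Phgdh and Aldh18a1 are called in the fit of the diamonds and not in that of the circles.

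ATF4 with a C/EBP partner is known to bind the C/EBP-ATF response element. Its core, TGATG followed by any base and AA, was searched on both strands of RefSeq promoter windows (GRCm38.p6, from 250 bases before to 50 bases after a start site). Of the 31 members with such a window, 10 held the core, which is 32.3%, against 4.51% of the 27025 gene symbols with a window. The list was written to hold known targets of ATF4, so a higher share was built into it and is not a result of these data. Asns, Atf3, Chac1, Got1, Nupr1, Pck2, Pycr1, Tars, Trib3 and Vldlr held it. Thus 2 of the 5 fallen members with a window (Trib3 and Vldlr) held the core and none of the 4 risen ones did, while 5 of the 18 members tested and not called held it. Trib3 counts among the fallen although it entered the test only through Foxo1Ctrl libraries. Whether these groups differ was not tested. Of the 4 members too rare to be tested, 3 held it as well. The sites of members that changed, and of 4 others for comparison, are shown to let the elements be read against the values given further on. They are written 5′ to 3′ on the strand that reads this core, with it in capitals.
Trib3, chr2:152344028-152344057, plus strand, core at bases 15 to 22 after the start: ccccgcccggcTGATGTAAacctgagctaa
Vldlr, chr19:27216809-27216838, minus strand, core starting 200 bases before the start: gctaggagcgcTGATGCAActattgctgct
Asns, chr6:7693214-7693243, minus strand, core starting 23 bases before the start: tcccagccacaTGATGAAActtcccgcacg
Tars, chr15:11399655-11399684, plus strand, core starting 15 bases before the start: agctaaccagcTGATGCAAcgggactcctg
Pycr1, chr11:120643833-120643862, minus strand, core starting 103 bases before the start: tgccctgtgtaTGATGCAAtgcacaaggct
Chac1, chr2:119351038-119351067, minus strand, core starting 193 bases before the start: cctggcaggagTGATGCAAcggcagggaag
Distances are from the RefSeq start, which can differ from the end of the gene in the GENCODE M21 annotation used for the positions given elsewhere. A match is only a string of letters in this window, and no binding was measured.

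Among the kinases that phosphorylate eIF2α, Eif2ak3 fell. It encodes PERK, which senses unfolded proteins in the endoplasmic reticulum (ENSMUSG00000031668, chromosome 6, 70844515 to 70905245). Its normalized counts were 216, 169 and 116 in Foxo1TKO libraries and 382, 369 and 376 in Foxo1Ctrl libraries. The Foxo1Ctrl values were close to each other and each lay above all of Foxo1TKO (log2 fold change −1.16 ± 0.25, adjusted p = 0.0128), and the call was lost without replicate 2 of Foxo1TKO (adjusted p = 0.062). Eif2ak4, which encodes GCN2, the kinase activated by uncharged tRNA, had 146, 138 and 97.7 counts against 90.6, 52.6 and 71.7. Its values were higher in all Foxo1TKO libraries without passing the threshold (log2 fold change 0.82 ± 0.30, adjusted p = 0.0841), which it passed under DESeq2 (adjusted p = 0.0399). Eif2ak1, the heme-regulated kinase HRI, had 1123, 791 and 574 counts against 1065, 715 and 1107 and overlapped between the genotypes (log2 fold change −0.21 ± 0.28). Aimp2 and Ankrd61 lie on the opposite strand over exons of Eif2ak1, and Gm43292 over exons of Eif2ak3. The sources used here do not say if the counting used strand, so that reads of such pairs may not be told apart.

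Atf4 mRNA was present in all libraries, with 767, 676 and 622 counts in Foxo1TKO and 655, 438 and 595 in Foxo1Ctrl cells. The genotypes overlapped and the difference did not pass the threshold (log2 fold change 0.29 ± 0.20, adjusted p = 0.334). ATF4 is controlled mostly at translation, which these data do not measure. Ddit3, which encodes CHOP, a bZIP factor induced by ATF4 under lasting stress, fell (ENSMUSG00000025408, chromosome 10, 127290774 to 127296288). It had 473, 475 and 545 counts in Foxo1TKO libraries, all below the 891, 866 and 767 of Foxo1Ctrl libraries (log2 fold change −0.76 ± 0.16, adjusted p = 0.0116). Without replicate 2 of Foxo1TKO the fall of Ddit3 missed the threshold (adjusted p = 0.0736). Another gene entry that also bears the name Ddit3 overlaps its exons on the same strand, and Gm4189 on the opposite strand. How reads were shared between these entries was not examined. Mars1, the synthetase for methionine on the opposite strand, shares part of its exons with Ddit3, and had 1163, 637 and 479 counts against 540.1, 161 and 501 (log2 fold change 0.92 ± 0.48, adjusted p = 0.209).

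Cebpg, which encodes a partner of ATF4, had 509.6, 612 and 692 counts against 576, 805 and 585 and overlapped (log2 fold change −0.12 ± 0.20). Atf5, another stress-induced bZIP factor, was rare, with 27, 19.3 and 22.5 against 23.8, 8.01 and 16.5 counts (log2 fold change 0.49 ± 0.44), and its exons overlap those of Nup62 and Il4i1. Atf3 and Cebpb, which encode bZIP factors induced by many stresses, and Nupr1, a small stress-induced nuclear protein, were near the limit of detection. Atf3 had 8, 1 and 0 raw counts in Foxo1TKO and 6, 3 and 6 in Foxo1Ctrl libraries. No library held more than 5 raw counts of Cebpb or 4 of Nupr1. No difference of these 3 genes could be detected at this depth.

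The lowest fitted fold change of the list was that of a feedback regulator. Trib3 encodes a pseudokinase that is induced by ATF4 and CHOP and holds back ATF4 (ENSMUSG00000032715, chromosome 2, 152337422 to 152344032). It was represented by 6, 6 and 0 raw counts in Foxo1TKO libraries and by 162, 34 and 124 in Foxo1Ctrl libraries. Thus every Foxo1Ctrl library lay above every Foxo1TKO library, although Foxo1Ctrl libraries themselves differed widely. Trib3 reached 10 counts in Foxo1Ctrl libraries alone, hence it entered the test only through the genotype in which it was high. Its difference is therefore given as counts, and its fitted log2 fold change (−4.69) depends on the prior count. In Foxo1TKO replicate 3, which held no read of Trib3, a count of 0 allows up to 3 counts, for counting error only.

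Eif4ebp1, which encodes the 4E-BP1 inhibitor of cap-dependent translation and is a target of ATF4, fell as well (ENSMUSG00000031490, chromosome 8, 27260329 to 27276674). Its counts were 388, 356 and 370.2 in Foxo1TKO and 669, 682 and 624 in Foxo1Ctrl libraries. The spread was small within both genotypes, which did not overlap (log2 fold change −0.82 ± 0.15, adjusted p = 0.00741). Without replicate 2 of Foxo1TKO the adjusted p of Eif4ebp1 was 0.0542. The subunits that direct a phosphatase to eIF2α and so end the response were not called different. The inducible Ppp1r15a (GADD34) had 639, 374 and 282 counts against 1273, 287 and 936, with Foxo1Ctrl replicate 2 far below the other two (log2 fold change −0.94 ± 0.52, adjusted p = 0.231). Without that library, which also stood lowest for GC-rich transcripts, Ppp1r15a was past the threshold (log2 fold change −1.34, adjusted p = 0.0319). With the GC correction and all libraries it was not (log2 fold change −0.97, adjusted p = 0.0945 from edgeR). None of the 11 other fits that kept all libraries called Ppp1r15a different. The constitutive Ppp1r15b (CReP) had 444, 337 and 255 counts against 457, 367 and 466 (log2 fold change −0.31 ± 0.24).

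Among other targets of the stress response, Vldlr fell. It encodes the very low density lipoprotein receptor (ENSMUSG00000024924, chromosome 19, 27216484 to 27254231). Its counts were 16.1, 36.9 and 21.5 in Foxo1TKO libraries and 124, 151 and 111 in Foxo1Ctrl libraries, so that the highest Foxo1TKO value was well below the lowest Foxo1Ctrl value (log2 fold change −2.33 ± 0.36, adjusted p = 0.00316). The call was made in all 6 fits that left out a library (adjusted p from 0.00657 to 0.0154). Both mTORC1 inhibitors of the list were not called. Ddit4 (REDD1) had 701, 275 and 293 counts against 189.6, 103 and 299, with a single high library in Foxo1TKO (log2 fold change 1.09 ± 0.48, adjusted p = 0.139). It passed the threshold in a fit with the GC correction and the replicate block (log2 fold change 0.98, adjusted p = 0.0409 from edgeR). Sesn2, a leucine sensor, had 78.6, 34.2 and 31.1 counts against 65.6, 25.2 and 63 (log2 fold change −0.09 ± 0.49), and the sign of its difference changed when a library was left out. Chac1, a glutathione-degrading enzyme and a known target of ATF4, was represented by 10, 5 and 0 raw counts in Foxo1TKO and 0, 0 and 2 in Foxo1Ctrl libraries, too few to be tested.

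The largest rise was that of Gpt2, the mitochondrial alanine aminotransferase, which makes alanine and α-ketoglutarate from glutamate and pyruvate (ENSMUSG00000031700, chromosome 8, 85492576 to 85527560). It had 134, 117 and 65.5 counts in Foxo1TKO libraries, and only 14.3, 10.3 and 13.6 in Foxo1Ctrl libraries. Even the lowest Foxo1TKO library lay far above the highest Foxo1Ctrl library (log2 fold change 2.96 ± 0.38, adjusted p = 0.0014). The call stood in all 6 fits without a library (adjusted p up to 0.00975). Got1, the cytosolic aspartate aminotransferase, had 549 ± 94.9 (SD, n = 3) against 519 ± 74.5 counts and overlapped between the genotypes (log2 fold change 0.08 ± 0.20).

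Asparagine synthetase, Asns, had 161, 150.0 and 50.4 counts in Foxo1TKO libraries and 25, 46.9 and 69.8 in Foxo1Ctrl libraries. Replicates 1 and 2 of Foxo1TKO were above all Foxo1Ctrl libraries and replicate 3 was not (log2 fold change 1.33 ± 0.51, adjusted p = 0.101). Asns passed the threshold when effective lengths were taken into account (adjusted p = 0.0371 from edgeR), under DESeq2 (adjusted p = 0.0418), with limma on the deposited signal (adjusted p = 0.0419) and without replicate 3 of Foxo1TKO (adjusted p = 0.0346 from edgeR). Over the 11 fits that kept all libraries its adjusted p ran from 0.0371 to 0.162. Aldh18a1, which starts proline synthesis from glutamate, had 1345, 764 and 645 counts against 581, 281 and 571. Its values did not overlap between the genotypes, though they missed the threshold (log2 fold change 0.94 ± 0.36, adjusted p = 0.0982), which they passed with the GC correction (log2 fold change 0.87, adjusted p = 0.0303 from edgeR), under DESeq2 (adjusted p = 0.0406), with no filter (adjusted p = 0.0439) and with the replicate block (adjusted p = 0.0445). Pycr1, which completes proline synthesis in mitochondria, was rare and variable, with 37.2, 19.3 and 1.07 counts against 13.1, 5.72 and 1.94 (log2 fold change 1.40 ± 0.93). Pck2, the mitochondrial PEP carboxykinase, had 128, 77.2 and 81.6 counts against 182, 106 and 98.8 (log2 fold change −0.42 ± 0.34).

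Both tRNA synthetases of the list, which load amino acids onto their tRNAs, were abundant. Tars, for threonine, had 2813, 3088 and 2883 counts in Foxo1TKO libraries, each above the 2095, 2421 and 2356 of Foxo1Ctrl libraries, and a small difference that did not pass the threshold (log2 fold change 0.35 ± 0.13, adjusted p = 0.0969). Nars, for asparagine, had 4909.5, 6263 and 5776 counts against 4328, 5055 and 4756 and overlapped (log2 fold change 0.26 ± 0.15).

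Serine synthesis runs in 3 steps, and the call was at the middle one. Psat1, the phosphoserine aminotransferase, rose (ENSMUSG00000024640, chromosome 19, 15904678 to 15947337). Its counts were 2009.8, 1951 and 1797 in Foxo1TKO libraries and 384, 699 and 658 in Foxo1Ctrl libraries. Foxo1TKO values were close to each other and well above all of Foxo1Ctrl (log2 fold change 1.72 ± 0.24, adjusted p = 0.00187). All 6 fits that left out a library called Psat1 higher (adjusted p up to 0.0126). Phgdh, the first enzyme, had 2353, 1162 and 847 counts against 863, 437 and 914 (log2 fold change 0.98 ± 0.42, adjusted p = 0.131). Its highest library in Foxo1TKO and its lowest in Foxo1Ctrl had the most extreme levels of GC-rich transcripts in their genotype. With the GC correction Phgdh passed the threshold (log2 fold change 0.88, adjusted p = 0.0473 from edgeR). Psph, the last enzyme, had 1402, 1412 and 1519 counts against 1178, 1232 and 1209. The genotypes did not overlap, but the difference was small (log2 fold change 0.26 ± 0.13, adjusted p = 0.198), and Cct6a overlaps its exons on the opposite strand.

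In the folate cycle, the cytosolic enzymes rose. Shmt1, the cytosolic serine hydroxymethyltransferase (ENSMUSG00000020534, chromosome 11, 60788104 to 60811718), had 599, 426 and 309 counts in Foxo1TKO libraries and 118, 75.5 and 154 in Foxo1Ctrl libraries. The genotypes were separate in spite of a wide spread within both (log2 fold change 1.93 ± 0.34, adjusted p = 0.00562), and all 6 fits that left out a library kept the call. Mthfd1, the cytosolic enzyme of 3 activities that interconverts carbon-loaded folates (ENSMUSG00000021048, chromosome 12, 76255298 to 76319803), had 661, 395 and 310.2 counts against 172, 88.1 and 191. These did not overlap either (log2 fold change 1.59 ± 0.38, adjusted p = 0.0187), but the call of Mthfd1 was lost without replicate 2 of Foxo1TKO or replicate 1 of Foxo1Ctrl (adjusted p up to 0.0517). Smcr8 overlaps exons of Shmt1, and Gm47525 those of Mthfd1, on the opposite strand.

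Of the mitochondrial folate enzymes of the list, Mthfd2, Shmt2 and Mthfd1l, the first was called. Mthfd2, a dehydrogenase of this arm, which is known to be strongly induced upon T-cell activation, fell (ENSMUSG00000005667, chromosome 6, 83305691 to 83325908). It had 1818, 1565 and 1483 counts in Foxo1TKO libraries and 2610.0, 2586 and 2508 in Foxo1Ctrl libraries. Foxo1Ctrl values were nearly equal and all Foxo1TKO values lay below them (log2 fold change −0.66 ± 0.14, adjusted p = 0.0123). The call was lost without replicate 2 or 3 of Foxo1TKO (adjusted p = 0.0783 and 0.0565 from edgeR). Shmt2, the mitochondrial counterpart of Shmt1, had 964, 400.1 and 365 counts against 389, 90.3 and 344 (log2 fold change 1.07 ± 0.56, adjusted p = 0.214) and Mthfd1l, which releases formate from mitochondria, 981, 738 and 727 against 665, 646 and 618 (log2 fold change 0.34 ± 0.18, adjusted p = 0.201). The values of Shmt2 overlapped between the genotypes and those of Mthfd1l did not. Shmt2 was called higher in a fit with the GC correction and the replicate block (log2 fold change 1.05, adjusted p = 0.0258 from edgeR), and its log2 fold change was 0.48 without replicate 1 of Foxo1TKO.

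To compare both arms, the ratio of the cytosolic to the mitochondrial enzyme was taken in each library on TPM, which are corrected for length. The ratio of Mthfd1 to Mthfd2 was 0.223, 0.171 and 0.175 in Foxo1TKO libraries and 0.0404, 0.0289 and 0.0444 in Foxo1Ctrl libraries. Even the lowest Foxo1TKO ratio was above the highest of Foxo1Ctrl, and the ratio was 5.05-fold higher on average, with a mean log2 ratio of −2.41 ± 0.21 against −4.75 ± 0.32 (SD, n = 3). The ratio of Shmt1 to Shmt2 was 0.618, 1.13 and 0.944 against 0.244, 0.746 and 0.559, with overlap between the genotypes. Both ratios were chosen after the values of the single genes were seen and are given as a description. An exact permutation test made after this choice gave p = 0.1 for Mthfd1 to Mthfd2 and p = 0.2 for Shmt1 to Shmt2. With 3 libraries per genotype its smallest p is 0.1, and nothing is concluded from it.

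**Figure D3:**
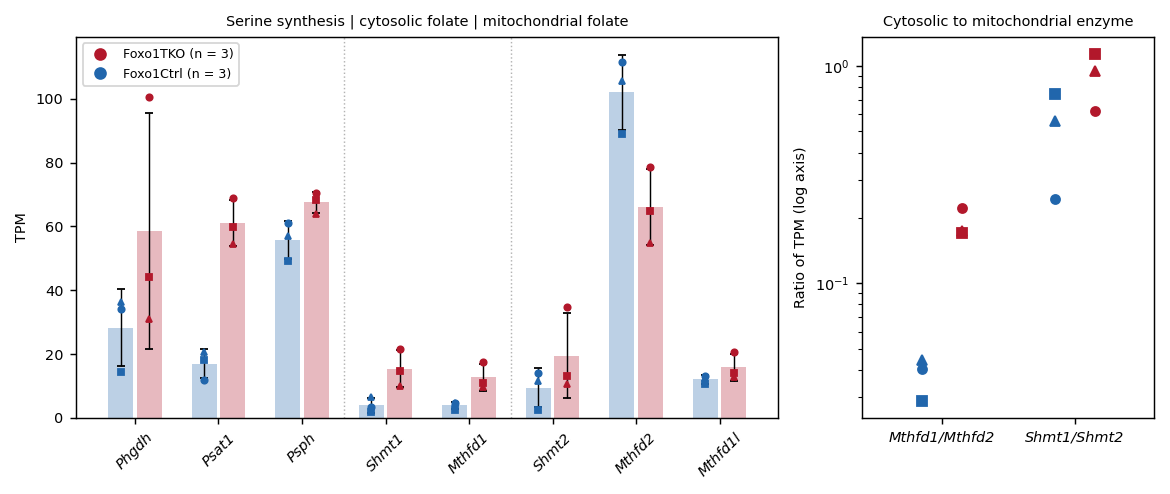
On the left, bars give the mean TPM of the serine and folate enzymes in each genotype with the SD (n = 3) and points give libraries (circle, square and triangle for replicates 1, 2 and 3). On the right, points give the ratio of the cytosolic to the mitochondrial enzyme on a log axis, where the Foxo1TKO ratios of Mthfd1 to Mthfd2 (0.171 to 0.223) all lie above those of Foxo1Ctrl (0.0289 to 0.0444).

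Levels of different genes were compared on TPM, with the mean ± SD of 3 libraries. In Foxo1Ctrl cells, Nars was highest with 136 ± 5.8 TPM, followed by Mthfd2 (102 ± 11.8), Ddit3 (76.3 ± 9.05), Psph (55.7 ± 5.97), Eif4ebp1 (48.1 ± 3.25) and Tars (46 ± 9.0). Psph, Eif4ebp1 and Tars differed by less than the sum of their SDs, whereas each step from Nars to Mthfd2, Ddit3 and Psph was larger than that sum. In Foxo1TKO cells Nars was again first (165 ± 15.4 TPM). It was followed by Psph (67.6 ± 3.32), Mthfd2 (66.1 ± 11.9), Tars (65.1 ± 9.1), Psat1 (61 ± 7.21) and Phgdh (58.6 ± 36.9), which differed by less than the sum of their SDs. Among the 34 genes, Psat1 stood in place 11 in Foxo1Ctrl and in place 5 in Foxo1TKO cells, while Trib3 went from place 20 (4.37 ± 3.17 TPM) to place 32 (0.13 ± 0.113 TPM). Shmt1 and Mthfd1 were similar to each other in both genotypes, at 3.94 ± 2.34 and 3.92 ± 1.17 TPM in Foxo1Ctrl cells and 15.5 ± 5.76 and 12.7 ± 4.2 TPM in Foxo1TKO cells. Despite its large relative rise, Gpt2 reached only 2.12 ± 0.754 TPM in Foxo1TKO cells.

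Libraries also differed in the level of GC-rich transcripts within the list. Of the 30 members tested, 9 had transcripts with a GC content of 55% or more (Atf4, Atf5, Ppp1r15a, Trib3, Sesn2, Ddit4, Pycr1, Phgdh and Shmt2). In Foxo1TKO replicate 1 all 9 lay above the mean of their genotype, with a median deviation of 0.83 on the log2 scale. In Foxo1TKO replicate 3 none did (median −0.51), and in Foxo1Ctrl replicate 2 only 1 did (median −0.81). For the 21 other members the medians of these 3 libraries were 0.27, −0.19 and 0.01. The GC content of a member correlated with its deviation with a Spearman coefficient of 0.70, −0.50 and −0.50 in Foxo1TKO libraries and of 0.79, −0.80 and 0.36 in Foxo1Ctrl libraries, as a description over 30 genes of the same libraries. In each library this correlation was stronger than the one over 12148 genes given above, and the cause was not tested. Of the 9 GC-rich members, Trib3 alone was called different.

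**Figure D4:**
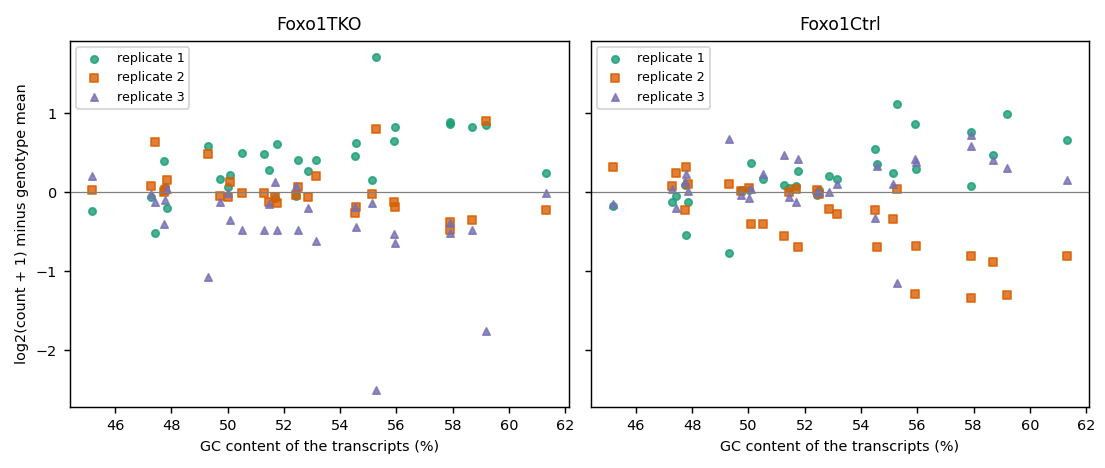
Each point is a member in a single library, placed by the GC content of its transcripts and by its log2(count + 1) minus the mean of its genotype. Points of replicate 1 of both genotypes and of Foxo1Ctrl replicate 3 increase with GC content. Those of replicate 2 of both genotypes and of Foxo1TKO replicate 3 decline.

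Other genes of the same pathways were taken from lists written for this comparison, with earlier results of these data known. Of 20 further genes of the stress response, 17 were tested, 2 rose and 1 fell (17.6% called). Stc2, a secreted stress-induced glycoprotein and the gene counted as fallen, had 5.07, 4.39 and 0 counts in Foxo1TKO libraries and 23.8, 69.8 and 33.9 in Foxo1Ctrl libraries. Like Trib3, it entered the test through Foxo1Ctrl libraries alone, and is given by its counts. Eif2b3, a subunit of the exchange factor eIF2B on which phosphorylated eIF2α acts, rose from 528 ± 117 to 997 ± 159.7 counts (log2 fold change 0.91 ± 0.22, adjusted p = 0.0197), and Xpot, the exporter of tRNA from the nucleus, from 429 ± 62.9 to 723 ± 148 (log2 fold change 0.75 ± 0.21, adjusted p = 0.0344). The call of Eif2b3 was lost without replicate 2 or 3 of Foxo1TKO or replicate 1 or 3 of Foxo1Ctrl (adjusted p up to 0.0795). That of Xpot was lost without any library but replicate 3 of Foxo1TKO (adjusted p up to 0.116), and when lengths were taken into account. Eif2b5, another subunit of eIF2B, had 1140, 1715 and 1590 counts against 262, 396 and 1013, without overlap. It missed the threshold (log2 fold change 1.41 ± 0.46, adjusted p = 0.0606) but was called in 7 of the 11 other fits that kept all libraries. The median log2 fold change of this list was 0.32. The secreted hormones Gdf15 and Fgf21, both targets of ATF4, had no count in any library.

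Of the 18 other cytosolic tRNA synthetases, 15 had a positive log2 fold change (median 0.36), but a single gene was called (5.56%), Farsb, a subunit of the synthetase for phenylalanine, with 2019.9, 2113 and 2022 counts against 786, 1041 and 862 (log2 fold change 1.19 ± 0.16, adjusted p = 0.00156). Without the fold limit 4 passed an adjusted p of 0.05, as did 24.2% of all genes. Kars (0.54), Rars (0.55) and Lars (0.49) were the others (adjusted p = 0.0194, 0.0352 and 0.0472 from edgeR). With a library left out, their adjusted p reached 0.0987, 0.157 and 0.185. The 17 mitochondrial tRNA synthetases had a median of 0.39, and Ears2 (1.65), Yars2 (1.31) and Fars2 (0.96) rose (17.6% called). The calls of Ears2 and Yars2 were lost without replicate 2 of Foxo1TKO or replicate 1 of Foxo1Ctrl (adjusted p up to 0.0681 and 0.082). On TPM, which take the lengths of transcripts in each library into account, Fars2 had 109.9 ± 21.5 against 22.9 ± 3.94 (SD, n = 3), a larger difference than on counts. None of either list fell, although Wars (−0.96) was called lower in 5 of the 11 other fits that kept all libraries (DESeq2, no filter, replicate block, GC correction, and both of the latter).

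Among 17 other folate genes tested of 22, 2 rose and 1 fell (17.6% called, against 23.0% of all genes). All of them are parts of the mitochondrial glycine cleavage system, which takes a carbon unit from glycine. Gcsh, its hydrogen carrier, had 423, 444 and 469 counts in Foxo1TKO and 147, 160.1 and 178 in Foxo1Ctrl libraries (log2 fold change 1.46 ± 0.18, adjusted p = 0.00126). Gldc, its decarboxylase, was rare and is given by its counts, since it entered the test through Foxo1TKO libraries alone, with 9.3, 15.8 and 18.2 against 3.58, 3.43 and 2.91 counts. Amt, its aminomethyltransferase, fell from 51.3 ± 11.6 to 16 ± 7.32 counts (log2 fold change −1.63 ± 0.43, adjusted p = 0.0299), a call that was lost whichever library was left out (adjusted p from 0.0513 to 0.0787). With the GC correction, 5 genes of this list were higher and 2 lower. In purine synthesis, which uses carbon units, 5 of 14 genes rose and none fell (median log2 fold change 0.51). The share that rose was 35.7%, against 11.1% of all genes. Since the list was chosen with earlier results of these data known, this share is a description only. The risen genes include Gart, which uses formyl folate, with 1786, 1449 and 1306 against 669, 398 and 763 counts (log2 fold change 1.31 ± 0.26, adjusted p = 0.00907), Ppat, which starts the pathway (1.01), Impdh2 (0.96) and Adssl1, an adenylosuccinate synthase that had 807 ± 214 counts against 46.1 ± 25.7 (log2 fold change 4.09 ± 0.43, adjusted p = 0.00059). Thymidylate synthase, Tyms, had 1302, 1787 and 1846 counts against 781, 1562 and 874 and was not called (log2 fold change 0.62 ± 0.28). Of 16 genes of proliferating cells, 5 were higher too (31.25%: Mcm5, Cdk1, Tk1, Pcna and Top2a, log2 fold changes from 0.80 to 1.49) and none lower. The list summed to between 16792 and 22464 counts in Foxo1TKO and between 12129.8 and 17545 in Foxo1Ctrl libraries. The calls of Mcm5 and Tk1 stood whichever library was left out, those of Cdk1 and Top2a in 1 of the 6 fits and that of Pcna in 2. In cultures of this kind, the paper reports fewer divisions of T cells lacking Foxo1, measured by dilution of a dye. The dye counts divisions made during the culture, whereas the mRNA was taken at its end. Whether the higher mRNA of these genes goes with more division was not tested. The part of proliferation in the folate and purine results was not tested.

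**Figure D5:**
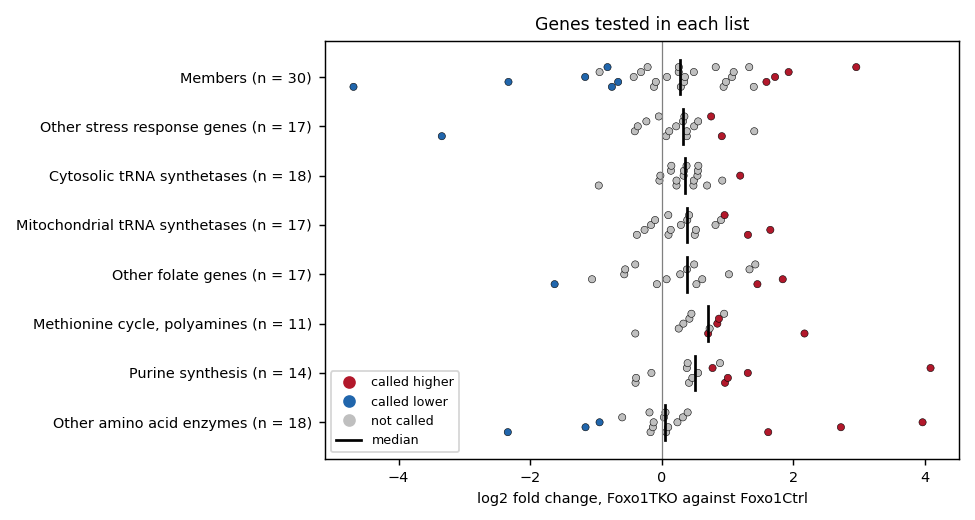
Each point is the log2 fold change of a gene tested, by list, coloured by call, with the median as a line. Medians of the 7 other lists run from 0.05 to 0.71, beside 0.28 for the members.

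Markers of other cells were measured because the cultures held splenocytes. Of all genes tested, 11.1% were called higher and 11.8% lower. The 11 T-cell genes summed to between 172382 and 181519 counts in Foxo1TKO and between 199633 and 227186 in Foxo1Ctrl libraries, and 1 of them, Cd28, was lower. The 11 B-cell genes summed to 188 to 259.7 and 636 to 703, and 4 of the 9 tested were lower in Foxo1TKO cells (Ms4a1, Cd79b, Cd22 and Cd79a), where Cd22 entered the test through Foxo1Ctrl libraries alone and Cd79a kept its call in 2 of the 6 fits without a library. Pax5 had at most 12 raw counts in a library. Of 6 plasma cell genes, 4 were tested and 3 were lower (Mzb1, Jchain and Irf4), the list summing to 2946 to 3893 and 4619 to 5595. Of 6 NK cell genes, Klrd1 and Klrk1 were lower and Eomes higher among 4 tested, with sums of 3070.4 to 4024 and 6093 to 8531, no count of Klra8, and at most 13 raw counts of Ncr1 in a library. The paper reports the higher Eomes and the lower Irf4 as changes of activated T cells lacking Foxo1. The sums of the plasma cell and NK cell lists hold these genes and so are not measures of other cells alone. None of the 4 myeloid genes tested of 15 was called, and this list summed to 157 to 207 and 122 to 176. The part of B-lineage and other cells in the lower members, such as Trib3 and Vldlr, was not tested. In such a mixture, fewer cells of a type and less RNA per cell cannot be told apart.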

How the data were processed

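RNA of 3 Foxo1TKO and 3 Foxo1Ctrl libraries was analysed, grouped by the titles of the samples. The authors deposited RSEM expected counts, TPM and effective lengths per gene (STAR 2.7.6a, RSEM 1.3.1, GRCm38), and a normalized signal per gene, made with DESeq2 after a filter on low counts and, by its values, corrected for effective length. Expected counts, which the authors did not normalize, were rounded. Totals ran from 14783890 to 19675447, and the number of libraries limits the precision. TPM, deposited by the authors, served for levels between genes.

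The 13691 genes that reached 10 counts in 3 or more libraries were tested with edgeR 4.0.16 (TMM, quasi-likelihood test, prior count 1, R 4.3.3). The model held genotype alone, with Benjamini-Hochberg adjustment over all of them. Alternatives were DESeq2 1.42.0, limma-voom (limma 3.58.1), other scalings and filters, effective lengths, limma on log2 of the deposited signal + 1, the replicate number as a block, a GC correction, and each library left out in turn. The fits were also run on simulated counts with changes of known size. These held no GC effect and no shared replicates, so they do not check how the fits handle either. All 34 listed genes are named, with the up to 4 called genes of each pathway list that had the largest log2 fold change. Glul, Me2, Mars1, Wars, Kars, Rars, Lars, Gdf15, Fgf21, Tyms, Bcat2, Cth and Eif2b5, and the markers named, were chosen after their values were seen. The members and lists were chosen with earlier results of these data known. Positions are those of GENCODE M21 (GRCm38). GC content is the mean over a gene's M21 transcripts, weighted by length, and the correction used a spline with 5 degrees of freedom.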

Additional observations from a re-analysis of the deposited data

How the results depend on the processing

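Under the 11 alternatives that kept all libraries, all 10 called members kept their direction and call, and the number called lower was 6 in each. The number called higher was 7 with DESeq2 (Eif2ak4, Asns and Aldh18a1 added), 6 with the GC correction (Aldh18a1 and Phgdh added), 8 with the GC correction and the replicate block (Ddit4 and Shmt2 added to these), and 5 with the replicate block alone (Aldh18a1 added). With each library left out, the number of members called lower ran from 2 to 6 and the number past an adjusted p of 0.05 from 5 to 10, both lowest without replicate 2 of Foxo1TKO, when Eif2ak3, Ddit3, Eif4ebp1, Mthfd2 and Mthfd1 were lost. The cause was not tested. In these fits the log2 fold change of members not called went from −0.49 to 0.0016 for Eif2ak1, from −0.23 to 0.061 for Cebpg, from −0.63 to 0.15 for Sesn2 and from −0.066 to 0.19 for Got1, so that their signs changed. Trib3 and Pycr1 were left untested by 3 of these fits, since too few libraries held 10 counts. The same replicate number marked no shared origin in the labels, and deviations of same-numbered libraries correlated by 0.432, 0.198 and −0.109, so that pairing rests on a number only. The 9-base form of the promoter element, TGATGCAAT, was found in 2 members (Nupr1 and Pycr1) in place of 10. The 10 members highest in Foxo1Ctrl cells on TPM were also the 10 highest on the deposited signal per length.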

Other observations

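Enzymes that take over carbon units and amino acids beyond the listed genes were looked at in a pair of further lists. These were also chosen with earlier results of these data known, so their shares are a description only. In the methionine cycle and polyamine synthesis, 11 of 15 genes were tested, 4 rose and none fell (median log2 fold change 0.71). The share that rose was 36.4%, against 11.1% of all genes. Srm, spermidine synthase, had 833, 939 and 881 normalized counts in Foxo1TKO libraries and 75.1, 154 and 355 in Foxo1Ctrl libraries. The genotypes did not overlap, although Foxo1Ctrl libraries differed widely among themselves (log2 fold change 2.17 ± 0.48, adjusted p = 0.0148). Its call was lost without replicate 2 of Foxo1TKO (adjusted p = 0.0543). Mtap, which salvages methionine, rose from 499.6 ± 80.2 to 915 ± 102 counts (log2 fold change 0.87 ± 0.18, adjusted p = 0.0118), Mat2a, which makes S-adenosylmethionine, from 1699 ± 383 to 3056 ± 398 (log2 fold change 0.85 ± 0.20, adjusted p = 0.0187) and Sms, spermine synthase, from 576 ± 117 to 941 ± 136 (log2 fold change 0.71 ± 0.21, adjusted p = 0.0419). Without replicate 2 of Foxo1TKO or replicate 1 of Foxo1Ctrl the calls of these 3 genes were lost, that of Mat2a also without replicate 1 of Foxo1TKO and that of Sms also without replicate 3 of either genotype (adjusted p up to 0.0592, 0.0698 and 0.149). Cth, the last enzyme of transsulfuration and a target of ATF4, had 0, 10 and 4 raw counts in Foxo1TKO libraries and 0, 0 and 0 in Foxo1Ctrl libraries.

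Of 18 other enzymes of amino acid metabolism tested, 3 were called higher and 3 lower (33.3%, against 23.0% of all genes). Bcat1, the cytosolic branched-chain aminotransferase, had 444, 367 and 327 counts in Foxo1TKO libraries and 22.7, 14.9 and 32 in Foxo1Ctrl libraries, a larger difference than that of Gpt2 (log2 fold change 3.97 ± 0.32, adjusted p = 0.000195). Its mitochondrial counterpart Bcat2 had 1320.1, 789 and 629 against 922, 352 and 916 and was not called (log2 fold change 0.32 ± 0.41). Pycrl, which like Pycr1 makes proline, rose from 702 ± 93.7 to 2161 ± 397 counts (log2 fold change 1.62 ± 0.19, adjusted p = 0.00105). Pck1, the cytosolic PEP carboxykinase, was rare, with 33, 12 and 33 raw counts in Foxo1TKO and 0, 3 and 5 in Foxo1Ctrl libraries, and is given by these counts, since it entered the test through Foxo1TKO libraries alone. Ass1, which makes argininosuccinate, fell, with 399, 193 and 116 against 1626, 852 and 1126 counts (log2 fold change −2.34 ± 0.45, adjusted p = 0.00848), and so did Glul, glutamine synthetase, with 380.3, 620.3 and 749 against 1013, 1904 and 987 (log2 fold change −1.16 ± 0.34, adjusted p = 0.0399, a call lost whichever library was left out, with an adjusted p from 0.0519 to 0.118), and Me2, a mitochondrial malic enzyme (log2 fold change −0.94 ± 0.17).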
